A study of Mus musculus with 27 samples.

Results

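Calcium absorption and vitamin D genes were followed in mouse colon with and without the forkhead transcription factors Foxa1 and Foxa2. The set has 6 genes, chosen by name with earlier results of these data known, out of 35975 annotated genes. They are Trpv6, S100g, Atp2b1, Vdr, Cyp24a1 and Casr. RNA sequencing of poly(A) RNA gave 27 libraries from 14 mice of mixed background. Proximal colon was taken from 7 control and 7 deficient mice. Distal colon came from 6 of those controls and all 7 deficient animals, so 13 mice gave both segments. Each library came from a 1 cm piece of whole colonic tissue, so muscle, immune and stromal cells were measured with the epithelium. All 7 deficient mice carried Villin1-Cre, a recombinase driven in the intestinal epithelium, with Foxa1lox/lox and Foxa2lox/lox alleles. Of the 7 control mice, 5 carried Foxa1lox/lox and Foxa2lox/lox without Cre. Control replicate 1 carried Villin1-Cre with Foxa1lox/wt and Foxa2lox/wt, and control replicate 6 carried Villin1-Cre with Foxa1lox/lox and Foxa2lox/wt. Control mice were 9 to 18 months old and were all labelled male. Deficient mice were 9 to 13 months old, and replicates 5 and 7 were labelled female. Deficient replicate 3 was labelled male but was found, in an earlier analysis of these libraries, to lack Y-linked transcripts. Sex and age therefore differ between the groups.

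Calcium crosses the intestinal epithelium between cells, through claudin pores, or through cells. In the cellular route Trpv6 is the apical entry channel, S100g (calbindin-D9k) carries calcium through the cytosol and Atp2b1 (PMCA1) pumps it out on the basolateral side. The active hormone 1,25-dihydroxyvitamin D binds the receptor Vdr, a nuclear receptor that raises transcription of Trpv6 and S100g in intestine and of Cyp24a1, the enzyme that breaks the hormone down. Casr is the cell-surface receptor that senses extracellular calcium.

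The targeted genes were low in deficient libraries. Foxa1 was at 10.1 to 14.5 CPM (counts scaled by library size, with TMM factors over all libraries) in proximal and 7.15 to 10.6 CPM in distal deficient libraries. Control libraries held 50.9 to 70.2 CPM in proximal and 42.6 to 80.1 CPM in distal colon, except control replicate 6 with 13.9 and 7.53 CPM. Foxa2 was at 1.24 to 1.75 and 0.322 to 1.38 CPM in deficient libraries, against 6.05 to 15.7 and 15.4 to 30.1 CPM in controls, with replicate 6 among the latter. Libraries held 18472867 to 56744113 estimated counts (median 40556273). The 9 epithelial markers summed to between 10679 and 23293 CPM, against 11.1 to 35.4 CPM for the 5 T cell markers. Smooth muscle markers summed to 998 to 3254 CPM in distal control and 430 to 1609 CPM in distal deficient libraries, and to 1427 to 2902 and 1832 to 3361 CPM in proximal colon. Small-intestinal enterocyte markers summed to 254 to 534 CPM in proximal control and 825 to 2976 CPM in proximal deficient libraries, without overlap, and all 8 tested members rose. In distal colon that sum was 40.8 to 342 CPM in control and 93.6 to 432 CPM in deficient libraries, and 5 of 7 tested members rose and 0 fell (median log2 fold change 2.3, against 0.01 over all genes). Enteroendocrine markers summed to 89.8 to 214 CPM in distal control and 240 to 522 CPM in distal deficient libraries, without overlap, and 5 of 6 rose. In proximal colon that sum was 205 to 572 and 211 to 282 CPM, and 4 of the 6 rose and 1 fell. Of 8 absorptive colonocyte markers 2 rose and 2 fell in proximal colon, and 0 rose and 2 fell in distal colon. Over all genes tested, 5.52% rose and 6.17% fell in proximal colon, and 2.7% rose and 3.37% fell in distal colon.

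Trpv6 (ENSMUSG00000029868.13, chromosome 6, 41620624 to 41636405, minus strand, GRCm38) was close to absent from proximal colon and present in distal colon of every mouse. The 7 proximal control libraries held 0, 0.128, 0.0703, 0.125, 0, 0.0993 and 0.0249 CPM in replicate order, 22 counts in all. The 7 proximal deficient libraries held 0.0427, 0.0181, 0.0218, 0, 0.118, 0.0227 and 0.0411 CPM, 13 counts in all. A count of 0 allows up to 3 counts, which is 0.0535 to 0.0747 CPM in proximal libraries, so most of these values lie near the limit of detection. Distal control libraries held 76.4, 79.5, 61.1, 13.2, 69.9 and 466 CPM. Distal deficient libraries held 6.9, 2.61, 581, 216, 133, 219 and 375 CPM. Every distal library of both groups therefore lay far above every proximal library.

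Within mice, distal Trpv6 was higher in 6 of 6 control and 7 of 7 deficient mice. The log2 fold change, distal against proximal, was 10.35 (SE 0.55, edgeR quasi-likelihood test with Benjamini-Hochberg adjusted p = 2.63e-06) in control mice. In deficient mice it was 12.15 (SE 0.54, adjusted p = 4.99e-07). In these comparisons 43.8% of 16507 genes tested in control mice and 45.1% of 16514 in deficient mice passed at an adjusted p under 0.05, so a passed test between segments is common. As higher in distal colon 21.5% and 22.7% passed, and as lower 22.3% and 22.4%. With 1 mouse left out the Trpv6 value ran from 9.62 to 11.02 in control and from 11.6 to 12.89 in deficient mice. Of the members tested there, Trpv6 and S100g passed in control mice and Trpv6 in deficient mice. The distal transcript was nearly all Trpv6-201, a protein-coding form with 15 exons that made up 99.5% of the gene's level in both genotypes. The closely related channel gene Trpv5 was at 0 counts in proximal libraries and at most 0.516 CPM in distal ones.

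Trpv6 varied among distal libraries more than it differed between genotypes. Its mean was 128 ± 167 CPM (SD, n = 6) in control and 219 ± 206 CPM (SD, n = 7) in deficient libraries, and the groups overlapped. Deficient replicates 1 and 2 lay below every control library and replicate 3 above every one. The log2 fold change, deficient against control, was 0.78 with a 95% interval from -1.29 to 2.85 (adjusted p = 0.738 by edgeR). Without control replicate 6 it was 1.86 (adjusted p = 0.366), and with only mice that carry Y-linked transcripts it was -0.19 (adjusted p = 0.959). Both low deficient mice were 9 months old and labelled male, and the others were 10 to 13 months old. Control replicate 2 was also 9 months old and held 79.5 CPM. Both low deficient libraries also differed in marker sums. Macrophage markers summed to 51.4 and 51 CPM, against 97 to 181 CPM in deficient replicates 3 to 7. B cell markers summed to 29.3 and 35.4 CPM, against 97.7 to 316 CPM. Small-intestinal enterocyte markers summed to 432 and 260 CPM, against 93.6 to 200 CPM. The parts of age and of tissue make-up in this order were not tested.

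**Figure D1:**
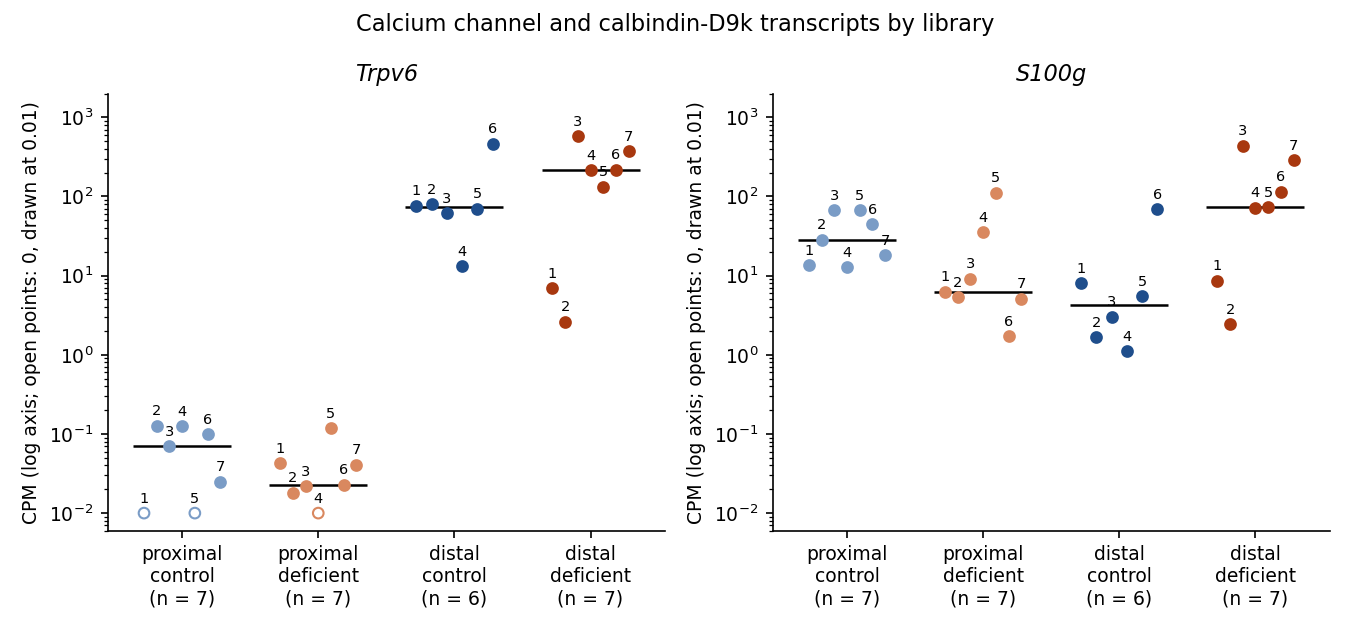
Trpv6 (left) and S100g (right) in each library, in CPM on a log axis, with the replicate number above each point and the group median as a line. Trpv6 lies at or below 0.128 CPM in proximal and at or above 2.61 CPM in distal libraries, and 5 of 7 distal deficient libraries lie above all distal controls for S100g.

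The promoter windows of Trpv6 and S100g are shown because these genes differ between segments, a choice made after their values were seen. Windows run from 250 bases before to 50 after the start site (RefSeq, GRCm38.p6), 5′ to 3′ on the gene's strand. Capitals mark the words searched on both strands, and no marked words overlap. The forkhead word was TGTTTAC and its variant was TATTTAC. The vitamin D receptor half-site word was AGGTCA, its first variant was GGGTCA, its second variant was AGTTCA and its last variant was GGTTCA.
Trpv6, chr6:41636356-41636655, minus strand: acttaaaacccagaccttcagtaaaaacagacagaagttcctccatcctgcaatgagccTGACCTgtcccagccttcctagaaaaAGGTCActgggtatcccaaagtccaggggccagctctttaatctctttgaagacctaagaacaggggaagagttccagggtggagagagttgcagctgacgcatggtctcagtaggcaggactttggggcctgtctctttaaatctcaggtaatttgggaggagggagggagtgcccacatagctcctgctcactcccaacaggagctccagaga
S100g, chrX:162964550-162964849, minus strand: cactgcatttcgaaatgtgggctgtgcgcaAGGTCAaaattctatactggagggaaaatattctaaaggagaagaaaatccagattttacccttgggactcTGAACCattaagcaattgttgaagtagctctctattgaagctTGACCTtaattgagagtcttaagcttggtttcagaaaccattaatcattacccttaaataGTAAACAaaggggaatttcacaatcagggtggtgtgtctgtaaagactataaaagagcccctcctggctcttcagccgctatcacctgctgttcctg
Atp2b1, chr10:98914392-98914691, plus strand: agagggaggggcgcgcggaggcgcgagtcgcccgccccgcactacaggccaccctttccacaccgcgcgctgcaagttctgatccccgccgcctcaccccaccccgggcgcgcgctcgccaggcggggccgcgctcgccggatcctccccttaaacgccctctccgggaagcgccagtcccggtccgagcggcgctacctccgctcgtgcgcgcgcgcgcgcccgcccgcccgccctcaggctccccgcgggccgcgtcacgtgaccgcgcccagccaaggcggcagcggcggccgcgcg
The Trpv6 window held AGGTCA on the minus strand of the window at -191 and on the plus strand at -165 from the start site. The S100g window held TGTTTAC on the minus strand at -47, AGGTCA at -220 and -107 and GGTTCA at -149. The Atp2b1 window is shown because that gene passed in a genotype comparison, and it held none of these words. Of 32851 promoter windows of this length, 3.65% held TGTTTAC, 6.54% either forkhead word, 16.3% AGGTCA and 43.7% any of the 4 half-site words. Direct repeats of the half-site words with 3 bases between them were in 0.0396% of windows and in 0 of the members' windows. The Vdr window held AGTTCA at -91, the Casr window and a second Atp2b1 window held none of the words, and Cyp24a1 had no window in the table. These matches describe letters only.

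S100g (ENSMUSG00000040808.4, chromosome X, 162961992 to 162964599, minus strand) was present in every library and varied widely within each group. Proximal control libraries held 13.6, 28.3, 66.7, 12.9, 66.6, 44.4 and 18.2 CPM. Proximal deficient libraries held 6.23, 5.37, 9.19, 35.7, 111, 1.71 and 5.14 CPM. Of these, 5 lay below every control library and 1, replicate 5, above every one. The log2 fold change was -0.49 with an interval from -2.12 to 1.13 (edgeR adjusted p = 0.777), and -1.76 (adjusted p = 0.0897) without deficient replicate 5. The small-intestinal enterocyte marker sum was higher in all of these deficient libraries than in any control, and its part in S100g was not tested.

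In distal colon S100g was low in control libraries, at 8.02, 1.68, 3.04, 1.11, 5.48 and 68.9 CPM. Distal deficient libraries held 8.59, 2.44, 440, 72.1, 73.3, 115 and 289 CPM. Replicates 3 to 7 of the deficient group thus lay above every control library, and replicates 1 and 2 within the control range. The means were 14.7 ± 26.7 CPM (SD, n = 6) and 143 ± 162 CPM (SD, n = 7). The log2 fold change was 3.29 (SE 1.19, interval 0.73 to 5.85), which did not pass over all genes (unadjusted p = 0.0154, adjusted p = 0.142 by edgeR). DESeq2 gave 3.27 with an adjusted p of 0.0367. In the same comparison 5 of 7 small-intestinal enterocyte markers rose, among them Fabp6 (5.13 ± 6.35 to 40.5 ± 35 CPM, adjusted p = 0.0328) and Mttp (4.05 ± 1.02 to 12.6 ± 4.08 CPM, adjusted p = 0.000543). Fabp2, another marker of that list, was at 140 ± 115 and 47.5 ± 69.9 CPM and did not pass (edgeR adjusted p = 0.417). Enteroendocrine markers rose in the same comparison as well (5 of 6). Deficient replicates 1 and 2, lowest for S100g, had the highest sums of both lists among distal deficient libraries. Their enterocyte marker sums were 432 and 260 CPM, against 93.6 to 200 CPM in replicates 3 to 7. A sum is weighted towards its most abundant genes. Fabp2 alone averaged 140 CPM in distal control libraries, where the median enterocyte sum was 159 CPM. The sum therefore need not follow the 5 markers that rose. Enteroendocrine sums of deficient replicates 1 and 2 were 522 and 420 CPM, against 240 to 297 CPM. The part of either list in S100g was not tested.

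The size and the call of the distal S100g difference depended on which control and which deficient mice were used. The single high control library was replicate 6, an 18-month-old mouse with Cre and low Foxa1. Without it the log2 fold change was 5.23 (edgeR adjusted p = 0.016). With controls without Cre it was 5.66 (adjusted p = 0.0271), and with mice of 9 to 13 months it was 5.41 (adjusted p = 0.039). Each of these subsets also leaves out control replicate 6, so they are not separate checks of the fit without it. With mice that carry Y-linked transcripts it was 1.77 (adjusted p = 0.542), a fit that leaves out deficient replicates 3, 5 and 7. Among these are the highest libraries, replicates 3 and 7 (440 and 289 CPM). Controls were all labelled male, so sex and genotype cannot be told apart in the replicates left out. The part of genotype, age and Cre in the high value of control replicate 6 cannot be told apart.

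S100g was lower in distal than proximal colon in 5 of 6 control mice, replicate 6 being the exception. The within-mouse log2 fold change in controls was -2.7 (SE 0.72, adjusted p = 0.0147 by edgeR). It was -2.44 (adjusted p = 0.0534) without control replicate 5 and -1.39 (adjusted p = 0.222) with the mouse left out of the model, and -3.33 (adjusted p = 0.00144) without control replicate 6. In deficient mice distal S100g was higher in 5 of 7, replicates 2 and 5 being the exceptions, with a log2 fold change of 2.28 and an interval from -0.41 to 4.97 (adjusted p = 0.147). Distal over proximal ratios ran from 0.0456 to 1.55 in control mice and from 0.455 to 67.2 in deficient mice. The test of whether the genotype effect differed between segments gave 4.98 (SE 1.57, unadjusted p = 0.00634, adjusted p = 0.189) by edgeR and 5.04 (adjusted p = 0.00244) by DESeq2.

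In the edgeR test of whether the genotype effect differed between segments, 0 of 5 members passed. The background was 1.01% of 17595 genes, 0.432% as higher and 0.58% as lower. Only S100g had an unadjusted p under 0.05, and DESeq2 called 1 member. Trpv6 gave 1.84 (adjusted p = 0.588), Atp2b1 0.08 (adjusted p = 0.927), Vdr -0.28 (adjusted p = 0.606) and Casr 0.77 (adjusted p = 0.808). Trpv6 was not tested in the proximal genotype comparison, where its counts fell under the filter.

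**Figure D2:**
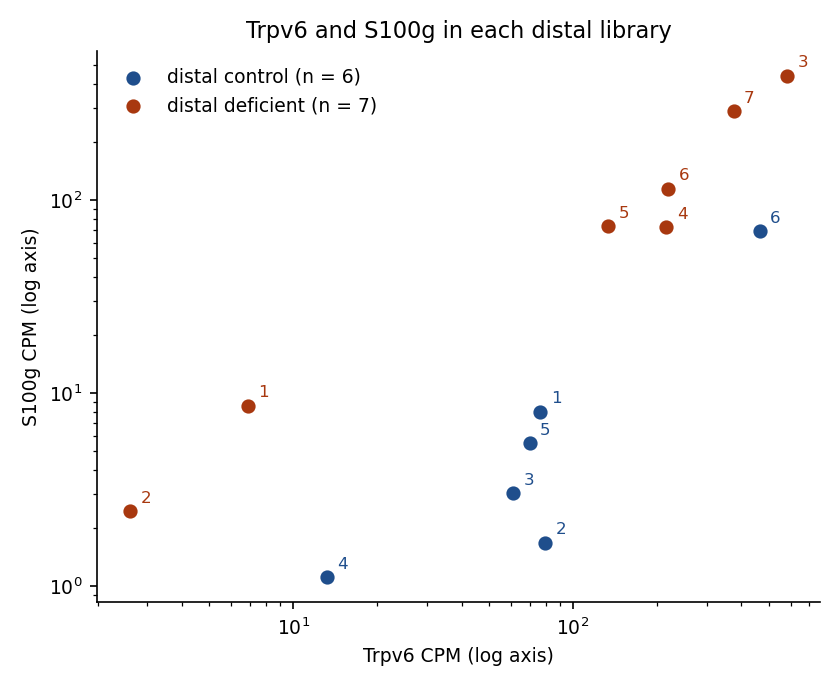
Trpv6 against S100g in each distal library, in CPM on log axes, with replicate numbers. The deficient libraries above 100 CPM of Trpv6 (133 to 581 CPM) are also those above every control for S100g (72.1 to 440 CPM), and deficient replicates 1 and 2 are low for both.

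In the distal deficient group the 2 libraries with the least Trpv6 also had the least S100g, and replicate 3 had the most of both. In the distal control group replicate 6 had the most of both and replicate 4 the least of both. Across distal libraries the genes came from the same RNA samples, so this order is a description and not a test. In proximal colon, where Trpv6 was near the detection limit, S100g was at 1.71 to 111 CPM, so S100g transcript was present with little Trpv6.

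Atp2b1 (ENSMUSG00000019943.10, chromosome 10, 98914406 to 99026143, plus strand) was lower in deficient libraries of both segments, and passed in proximal colon. Proximal control libraries held 439, 493, 676, 573, 499, 934 and 506 CPM. Proximal deficient libraries held 371, 430, 323, 523, 371, 298 and 299 CPM. All 7 deficient libraries were below the control mean and 6 of 7 were below every control library. The mean fell from 588 ± 170 to 374 ± 81.1 CPM (SD, n = 7 each), with a log2 fold change of -0.64 (SE 0.17, interval -1 to -0.28, edgeR adjusted p = 0.0207). It was 1 of 4 tested members that passed in proximal colon, where 11.7% of 16787 genes passed and 6.17% did so as lower. Read against that background, 1 of 4 is no result about the members together. In that comparison 5.52% of genes passed as higher. All members overlapped between genotypes in both segments, whereas the library ranges of 4.78% of proximal and 3.44% of distal genes did not overlap.

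The call for Atp2b1 was held in every fit that left out 1 library, with adjusted p from 0.00858 to 0.0469. Adjusted p was 0.0744 among mice labelled male (log2 fold change -0.58), 0.0629 among mice of 9 to 13 months (-0.54) and 0.177 among mice with Y-linked transcripts (-0.51). Smooth muscle markers passed for 0 of 6 in proximal colon by edgeR, as by DESeq2 and limma, with 0 at an unadjusted p under 0.05, and 1 of 9 epithelial markers passed, as lower. Of 8 absorptive colonocyte markers, 2 passed as higher and 2 as lower in proximal colon. The part of tissue make-up in the Atp2b1 change was not tested. Fewer cells of a type and less RNA per cell cannot be told apart in these bulk samples.

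In distal colon control libraries held 387, 509, 453, 630, 390 and 977 CPM of Atp2b1, and deficient libraries 357, 419, 455, 340, 217, 314 and 411 CPM. The groups overlapped, with 4 of 7 deficient libraries below every control. The mean was 558 ± 224 CPM (SD, n = 6) in control and 359 ± 79.6 CPM (SD, n = 7) in deficient libraries. The log2 fold change was -0.63 (SE 0.22, unadjusted p = 0.0133, adjusted p = 0.129), and -0.4 (adjusted p = 0.267) without control replicate 6. Smooth muscle markers passed for 0 of 6 there by edgeR, with 3 at an unadjusted p under 0.05 and a median log2 fold change of -0.71. Absorptive colonocyte markers passed as lower for 2 of 8 and as higher for 0, with a median of -0.48. Their part in the distal Atp2b1 values was not tested. In the distal comparison 0 of 4 tested members passed by edgeR, 2 had an unadjusted p under 0.05, DESeq2 called 1 and limma on the authors' values called 0, with 6.07% of 16041 genes called by edgeR, 2.7% as higher and 3.37% as lower. Between segments Atp2b1 did not pass in control mice (-0.13, adjusted p = 0.42) or in deficient mice (-0.06, adjusted p = 0.798).

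Vdr (ENSMUSG00000022479.15, chromosome 15, 97854425 to 97910630, minus strand) was at similar levels in all 4 groups. Proximal control libraries held 313, 368, 344, 316, 373, 432 and 359 CPM and proximal deficient libraries 462, 395, 390, 385, 327, 411 and 320 CPM. Distal control libraries held 539, 457, 415, 438, 371 and 372 CPM and distal deficient libraries 425, 437, 411, 320, 293, 317 and 497 CPM. The highest of the 4 group means was 1.21 times the lowest, and every pair of groups overlapped. The genotype log2 fold change was 0.12 in proximal colon (interval -0.08 to 0.32, edgeR adjusted p = 0.528) and -0.15 in distal colon (interval -0.45 to 0.14, adjusted p = 0.618). The distal against proximal difference in control mice was 0.28 (adjusted p = 0.124), or 0.51 (adjusted p = 0.0115) with an offset for transcript length, and in deficient mice it was -0.0038 (adjusted p = 0.984).

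**Figure D3:**
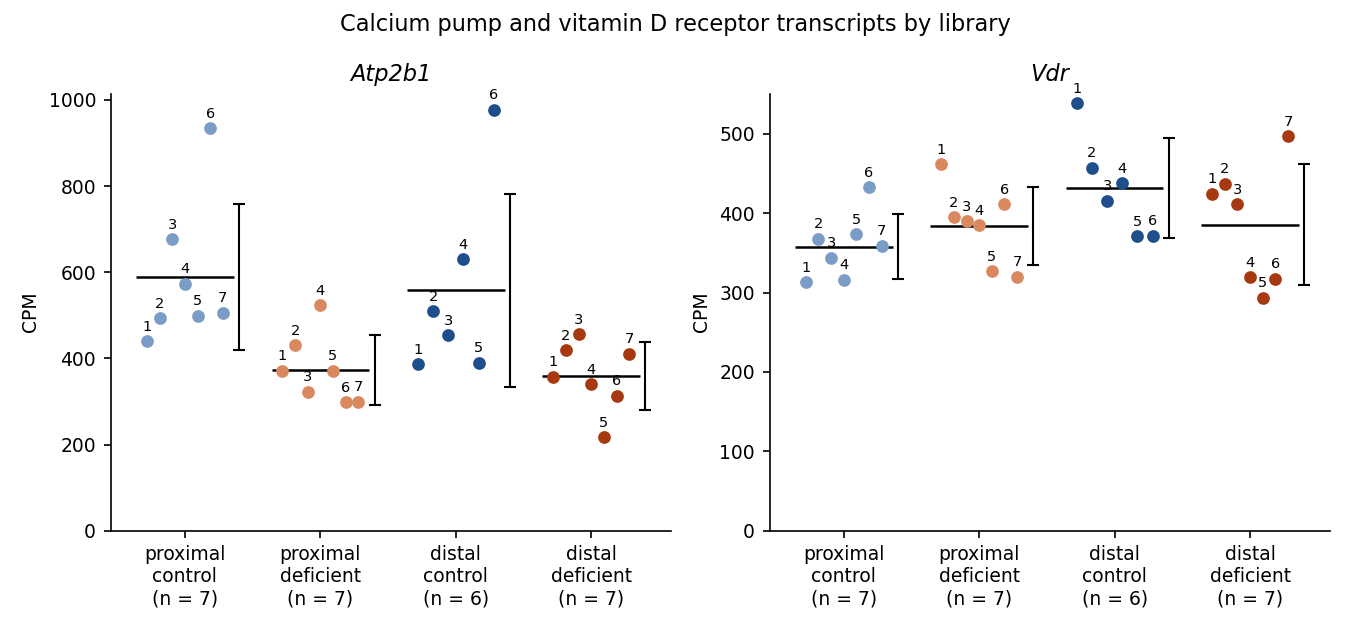
Atp2b1 (left) and Vdr (right) in each library, in CPM on a linear axis from 0, with replicate numbers, the group mean as a line and the SD as a bar. Proximal deficient libraries reach 298 to 523 CPM of Atp2b1 against 439 to 934 CPM in proximal controls, and all 4 groups overlap for Vdr.

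Cyp24a1 (ENSMUSG00000038567.5, chromosome 2, 170482708 to 170497145, minus strand) was near the detection limit throughout and was not tested. It held 0, 0, 0, 6, 1, 0 and 0 counts in proximal control libraries and 20, 3, 1, 2, 8, 1 and 0 counts in proximal deficient libraries. Of those 35 deficient counts, replicate 1 gave 20 (0.427 CPM). Distal control libraries held 0 counts in all 6, which allows up to 0.0579 to 0.129 CPM, and distal deficient libraries 3 counts in all. With no filter on low counts the proximal log2 fold change was 2.25 (SE 0.99, edgeR adjusted p = 0.258).

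Casr (ENSMUSG00000051980.13, chromosome 16, 36493696 to 36562141, minus strand) was low, and lower in distal than proximal colon. Proximal control libraries held 10, 18, 33, 25, 20, 28 and 23 counts (0.213 to 0.774 CPM), and proximal deficient libraries 18, 27, 14, 18, 3, 16 and 0 counts. Distal control libraries held 1, 4, 3, 4, 1 and 0 counts and distal deficient libraries 7, 7, 0, 1, 2, 0 and 0 counts. Distal Casr was higher in 0 of 6 control mice and 1 of 7 deficient mice. The filter left Casr out of the segment comparisons. With no filter its log2 fold change was -2.86 (SE 0.51, edgeR adjusted p = 0.000826) in control mice and -2.12 (SE 0.7, adjusted p = 0.0414) in deficient mice. The proximal genotype difference was -0.73 (interval -1.8 to 0.34, adjusted p = 0.45).

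**Figure D4:**
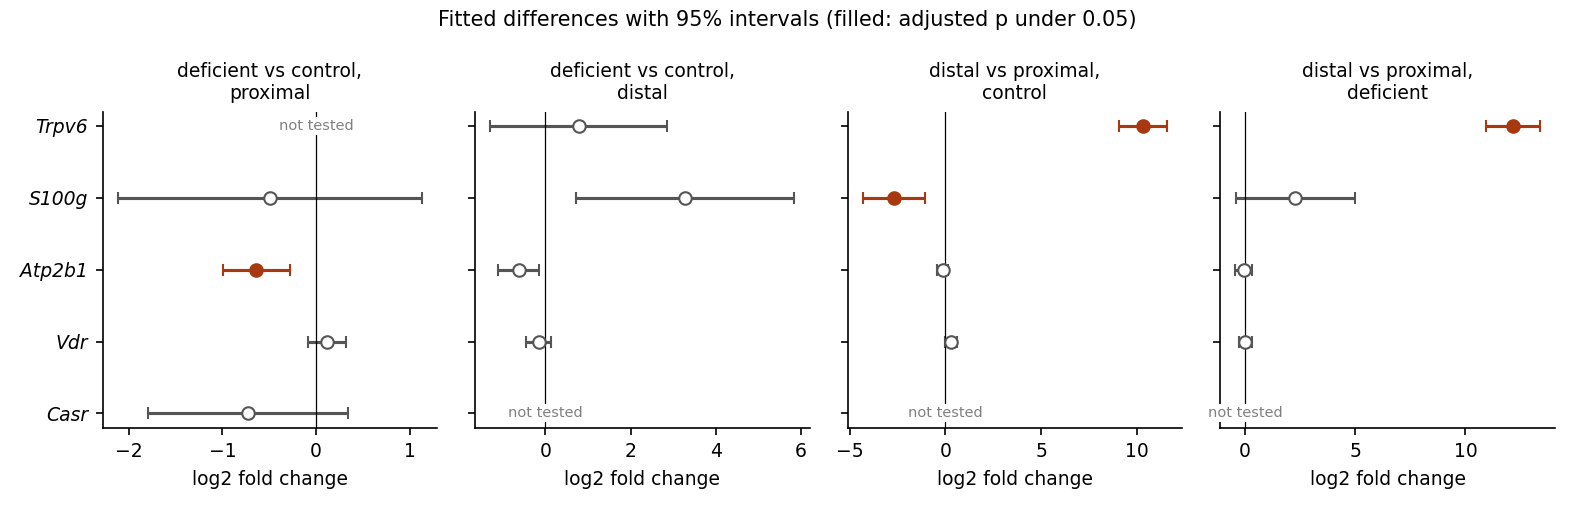
Log2 fold change with its 95% interval for each tested member in the genotype comparisons (deficient against control) and segment comparisons (distal against proximal), filled where the adjusted p was under 0.05. Atp2b1 passes in proximal colon at -0.64, Trpv6 in both segment comparisons at 10.35 and 12.15 and S100g in control mice at -2.7, and the horizontal scales differ between panels.

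Levels between genes were compared per length, in TPM as deposited. In proximal control libraries S100g was at 188 ± 118, Atp2b1 at 170 ± 56.5 and Vdr at 123 ± 19.7 TPM (SD, n = 7), an order whose neighbours lie within their spread. Casr followed at 0.221, Trpv6 at 0.0329 and Cyp24a1 at 0.00713 TPM. In distal control libraries Vdr at 140 ± 24.1 and Atp2b1 at 137 ± 46.3 TPM led S100g at 63.3 ± 112 and Trpv6 at 49 ± 59.8 TPM (SD, n = 6). In distal deficient libraries S100g led at 690 ± 749 TPM, with Vdr at 135 ± 25.1, Atp2b1 at 97.5 ± 20 and Trpv6 at 92.5 ± 82.5 TPM (SD, n = 7). S100g and Trpv6 varied too much between libraries for their places in the distal order to be firm.

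S100g and Cyp24a1 have 1 annotated transcript each. Atp2b1-201, the full-length form with 21 exons, made up 55 to 61.9% of Atp2b1 TPM in the 4 groups. Vdr-201 made up 93.6 and 93.7% of Vdr TPM in proximal and 80.8% in distal groups. TPM divides by length, so short transcripts reach high shares from fewer counts. In distal control libraries Vdr-204 held 241 and Vdr-206 held 228 estimated counts, against 86619 for Vdr-201. Atp2b1-208, at 27.1% of Atp2b1 TPM there, held 9190 counts, against 96216 for Atp2b1-201. The short Vdr-204 was at 0 in proximal and 13.8 ± 2.88 TPM (SD, n = 6) in distal control libraries. Effective length, which corrects for fragment size, was 249 bases below transcript length in all distal libraries, and the gap was smaller in all proximal ones, so short transcripts were handled differently between segments. Its part in the Vdr-204 difference was not tested.

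Genes of most similar pattern were taken by the smallest root-mean-square difference of centred log2 CPM over the 27 libraries. For Trpv6 they were Atp12a (1.28), Sval1 (1.48) and Ly6g (1.87), against a median of 5.17 over all genes compared. For S100g they were Aldh1a3 (1.58), Cers3 (1.63) and Mmp7 (1.7), against a median of 2.32. Atp12a was at 1.37 ± 0.788 CPM in proximal control and 1307 ± 1086 CPM in distal control libraries, and at 756 ± 515 CPM in distal deficient ones. For Casr they were Srgap3, Zfp462 and Sobp, at 0.726 to 0.74, and for Cyp24a1 Vash2, Tdrd12 and Cdk3-ps, at 0.559 to 0.608, against medians of 1.36 and 0.848. A gene with no variation would score 5.14 against Trpv6, 2.29 against S100g, 1.34 against Casr and 0.767 against Cyp24a1. Cyp24a1 was near the detection limit, so its similar genes say little about a shared pattern. The group means of Atp2b1 and Vdr spanned less than 2-fold, so no similar genes were sought.

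Other genes of calcium, phosphate and magnesium handling were counted by list. Over all genes tested, 5.52% passed as higher and 6.17% as lower in proximal colon, and 2.7% and 3.37% in distal colon. Some genes, among them Atp2b1 and Cldn2, are counted in more than 1 list. In proximal colon 1 of 13 calcium entry, buffering and extrusion genes fell and 0 rose, with a median log2 fold change of -0.08 against 0.01 over all genes. In distal colon 0 of 12 passed by edgeR, 4 had an unadjusted p under 0.05, DESeq2 called 1 and limma 0. Of 9 vitamin D activation, transport and receptor genes, 0 passed in either segment by edgeR, 1 and 0 had an unadjusted p under 0.05, and DESeq2 called 1 in proximal and 0 in distal colon. Of 8 vitamin D receptor target genes, 3 fell in proximal colon (Slc37a2, Cldn2 and Atp2b1), and 1, Cldn2, rose in distal colon. Of these Slc37a2, a sugar phosphate carrier, fell from 218 ± 114 to 18 ± 13.8 CPM (SD, n = 7 each), with a log2 fold change of -3.58 (SE 0.56, adjusted p = 0.000379). Its distal change was -1.42 (adjusted p = 0.27).

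Cldn2, a claudin that forms a paracellular cation pore, changed in opposite directions in the segments. It fell from 195 ± 41.3 to 120 ± 21 CPM in proximal colon (-0.68, SE 0.14, edgeR adjusted p = 0.00303) and rose from 66.9 ± 25.7 to 116 ± 22.4 CPM in distal colon (0.8, SE 0.22, adjusted p = 0.0423). The distal call was lost under 14 of 23 alternatives. The difference between segments was 1.54 (adjusted p = 0.00604), and 1.37 (adjusted p = 0.0816) with mice that carry Y-linked transcripts.

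Among 5 phosphate transporters 1 rose and 3 fell in proximal colon, against 5.52% and 6.17% of all genes. Slc34a2, the apical sodium-phosphate cotransporter of intestine, rose from 9.06 ± 9.83 to 110 ± 31.7 CPM (SD, n = 7 each), with a log2 fold change of 3.63 (SE 0.49, edgeR adjusted p = 0.000101). In distal colon it was at 75 ± 49.2 and 150 ± 59.6 CPM (1.01, adjusted p = 0.18). The small-intestinal enterocyte marker sum was also higher in every proximal deficient library than in any control, and its part in the Slc34a2 change was not tested. The difference of the effect between segments was -2.78 (adjusted p = 0.00745), or -2.53 (adjusted p = 0.0586) with the mouse left out of the model. The phosphate exporter Xpr1 fell in both segments (-0.46, adjusted p = 0.00276, and -0.8, adjusted p = 0.000602), while Slc20a1 (-0.98, adjusted p = 0.00776) and Slc34a1 (-1.69, adjusted p = 0.0107) fell in proximal colon.

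Of 14 store and organelle calcium genes tested in proximal colon, 5 fell and 1 rose, against 6.17% and 5.52% of all genes. Atp2a3, a pump that fills the endoplasmic reticulum, fell from 647 ± 100 to 304 ± 36.3 CPM (-1.07, adjusted p = 5.29e-06). In distal colon it fell from 1109 ± 125 to 595 ± 78.1 CPM (-0.89, SE 0.11, edgeR adjusted p = 0.000229). Atp2c2, a Golgi calcium and manganese pump, fell from 35.1 ± 5.33 to 9.66 ± 1.88 CPM in proximal colon (-1.84, SE 0.13, adjusted p = 3.03e-07). The channel gene Orai2 (-1.13, adjusted p = 0.000122) and the calcium sensor gene Stim2 (-0.56, adjusted p = 0.000183) fell as well. Stim1, named with Orai1 after their values were seen, fell in proximal (-0.48, adjusted p = 0.00351) and distal colon (-0.65, adjusted p = 0.00689), and Orai1 rose in proximal colon (0.24, adjusted p = 0.0433). In distal colon 2 of 13 fell, against 3.37% of all genes.

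Of 10 calcium-sensing and calciotropic genes, 1 rose and 2 fell in proximal colon, against 5.52% and 6.17% of all genes. Stc1, a secreted hormone of the stanniocalcin family, rose from 0.911 ± 0.198 to 3.16 ± 1.08 CPM (1.81, SE 0.22, adjusted p = 4.03e-05), while Stc2 fell from 14.3 ± 3.79 to 6.68 ± 1.82 CPM (-1.08, SE 0.19, adjusted p = 0.001). Pthlh also fell (-0.76, adjusted p = 0.0277), a call lost under 7 of 23 alternatives. In distal colon 0 of 9 passed by edgeR, 1 had an unadjusted p under 0.05, DESeq2 called 1 and limma 0. Of 7 magnesium transport genes 0 passed in proximal colon by edgeR, with 2 at an unadjusted p under 0.05, 1 by DESeq2 and 0 by limma. In distal colon 1 passed, Slc41a2 (-0.42, adjusted p = 0.027), a call lost under 14 of 23 alternatives.

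**Figure D5:**
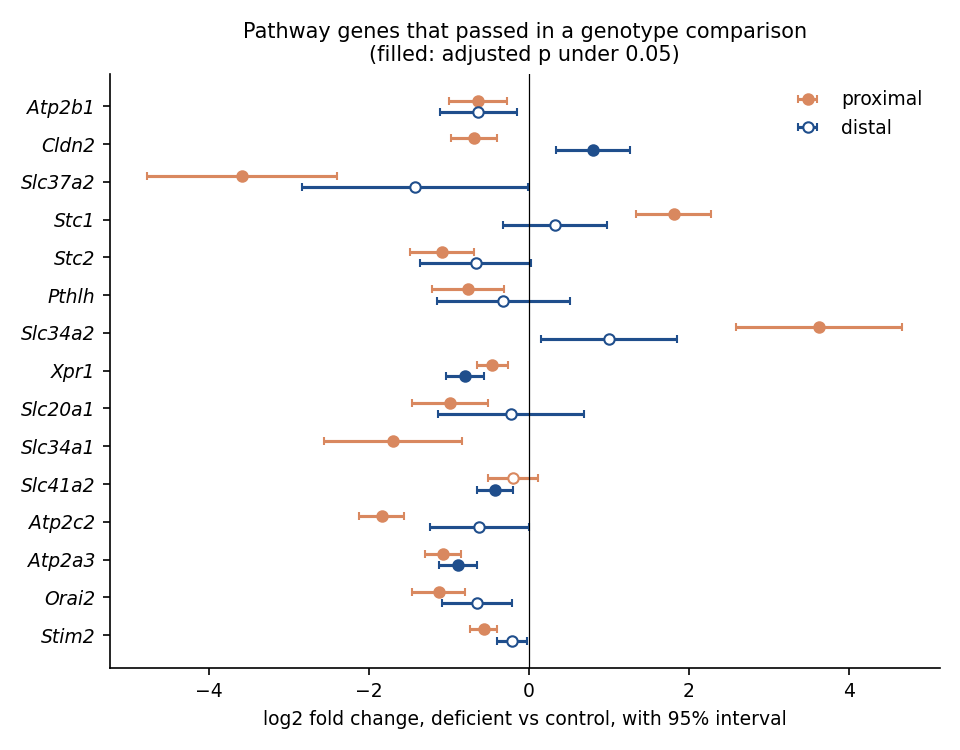
Log2 fold change with its 95% interval, deficient against control, for each pathway gene that passed in a genotype comparison and is named by the rule, in proximal (orange) and distal (blue) colon, filled where the adjusted p was under 0.05. Slc34a2 at 3.63 and Slc37a2 at -3.58 in proximal colon are the widest changes shown, and Cldn2 lies on opposite sides of 0 in the segments.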

How the data were processed

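The tools named in the submitters' processing notes are bcl2fastq 2.20.0.422, cutadapt 2.5, kallisto 0.46.2 and edgeR, the last without version, with the build GRCm38 (mm10). The authors deposited estimated counts, effective lengths and TPM per transcript, and a log2 CPM matrix per segment, its normalization not given in the sources used here. Of 119414 transcripts, 116728 matched GENCODE M21, and the 2686 others with 0.9 to 1.27% of a library's counts were dropped. Gene totals of the deposited expected counts were rounded to whole numbers, and 0 pairs of libraries were identical.

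Each comparison was fitted with edgeR 4.0.16 (quasi-likelihood test, filterByExpr, TMM, R 4.3.3), with p adjusted over all genes tested, and mouse as a block between segments. The log2 CPM deposited by the authors were tested with limma 3.58.1, and DESeq2 1.42.0 was an alternative. The procedures were tested on simulated counts. Samples of the same replicate number in control and deficient groups are different mice and were not paired (correlations of deviations -0.16 to 0.27). Segments of 1 mouse were paired from the labels (-0.035 to 0.43). Named genes were the 6 members and, per list, up to 4 genes of smallest p called in a genotype comparison. Members and lists were chosen with earlier results of these data known. Cyp24a1 and Casr were in neither log2 CPM matrix and Trpv6 was only in the distal one.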

Additional observations from a re-analysis of the deposited data

Results flagged for a closer look

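Of 23 groups of libraries tested, 6 had a library far from the others by Dixon's criterion. Chance gives this in about 1 in 20 groups of normally distributed values. The criterion was applied to CPM without a log, and some groups were near 0 counts, so that rate need not hold here. Distal control replicate 6 stood apart for both Trpv6 (466 CPM) and S100g (68.9 CPM). Proximal deficient replicate 5 stood apart for S100g (111 CPM) and for Trpv6 (0.118 CPM, from 6 counts). Cyp24a1 stood apart in proximal control replicate 4 (0.107 CPM, 6 counts) and proximal deficient replicate 1 (0.427 CPM, 20 counts).

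The genotype effect differed between segments, by the mouse-blocked edgeR test, for Slc34a2 (difference of log2 fold changes -2.78, adjusted p = 0.00745) and Cldn2 (1.54, adjusted p = 0.00604).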

How the results depend on the processing

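Directions and calls were recomputed under DESeq2, other size factors, no filter, a transcript-length offset, subsets of mice, the authors' log2 CPM (genotype comparisons) and with each library or mouse left out. Genes called in distal colon numbered 1588 with DESeq2 and 569 with only mice that have Y-linked transcripts, against 973. For the difference between segments 178 genes became 535 with DESeq2, 70 with those mice, 106 with mice of 9 to 13 months and 102 to 225 with 1 mouse left out (102 without control replicate 2, 110 without deficient replicate 3). The segment comparison of deficient mice gave 4774 with those mice, against 7445. With 1 mouse left out calls ran from 1627 to 2255 (proximal), 792 to 1007 (distal), 5381 to 7311 (control segments) and 5906 to 7370 (deficient segments).

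Replicate numbers of different genotypes name different mice. With the replicate number as a block, 1696 genes were called in proximal and 689 in distal colon, and Atp2b1 did not pass in proximal colon (-0.62, adjusted p = 0.0599). Same-mouse pairing was the main fit between segments, and without that block 222 genes were called for the difference, 6656 in control and 7695 in deficient mice.

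Values that changed sign were all uncalled in every fit. Distal Trpv6 was -0.095 with the replicate block and -0.19 with those mice. The difference of the Atp2b1 genotype effect between segments was -0.019 with those mice. It was -0.012, -0.01 and -0.014 without control replicate 3, deficient replicate 3 and deficient replicate 7 (range with 1 mouse left out -0.014 to 0.193). In deficient mice the Atp2b1 segment difference was 0.0897 with the length offset and 0.042 and 0.0568 without deficient replicates 4 and 5 (range -0.152 to 0.0568). The Vdr difference there was 0.015 with DESeq2, 0.012 with DESeq2 size factors, 0.23 with the length offset, 0.015 without the block, and 0.0095, 0.046, 0.019 and 0.056 without deficient replicates 1, 4, 5 and 6 (range -0.111 to 0.056). In deficient mice the S100g segment difference passed with DESeq2 (2.27, adjusted p = 0.034), and in control mice that of Vdr passed with mice of 9 to 13 months (0.46, adjusted p = 0.039). The cause of these changes was not tested.

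Counts of Cyp24a1, Casr and proximal Trpv6 limit what can be detected, and the floors of 3 counts cover counting error only. Mice were not matched for age or sex. The p-values weigh a genotype difference against the spread between these mice. With mouse as a block, they weigh a segment difference, or its dependence on genotype, against the spread of within-mouse differences.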
